A study of Rattus norvegicus with 48 samples.

Results

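Genes of the extracellular matrix, its integrin receptors and the proteases that cut it were followed in rat kidney. All genes were taken that lie on probe sets with 1 platform gene symbol and whose symbol names a collagen alpha chain, a laminin chain, an integrin subunit, a matrix metalloproteinase (Mmp), a tissue inhibitor of metalloproteinases (Timp), an ADAMTS protease, fibronectin, a fibrillin, tenascin C or a lysyl oxidase. Timp1 and Itgam were left out by the rule, and no measured value entered it. The rule gave 39 of the 7997 genes measured, on 1093 probe sets, with 5 to 70 probe sets a gene and a median of 17. Itgb3bp and Itgbl1 match the rule by name but are not integrin subunits. They stay among the 39 genes and were kept apart only from the counts of integrin subunits.

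Kidney RNA of male rats, 12 weeks old in 1 label and 12 to 14 weeks in another, was hybridised to exon arrays. The labels name 4 strains, F, L, FL and LF, without expanding the names. From each strain, 4 arrays were made at day 0 after gavage with the carrier, vegetable oil, and 4 arrays each after 7 and 10 days of gavage with indole-3-carbinol (I3C in the labels) at 100 mg/kg/day. I3C comes from cabbage-family plants, and it leads to activation of the aryl hydrocarbon receptor. All rats were thus gavaged, and every day 7 and day 10 group received I3C. No group received the carrier for 7 or 10 days, so I3C and the days of gavage cannot be told apart. From knowledge of such rats outside the labels, I3C switches on a renin transgene under the Cyp1a1 promoter and so raises blood pressure, and the promoter is most active in liver. The labels state 8 rats per group and 4 biological replicates, and whether an array held RNA of 1 rat or of a pool is not given. The p-values therefore measure the spread between these arrays.

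The extracellular matrix of the kidney has a basement membrane, built from type IV collagen and laminins, under tubules and glomerular capillaries, and a sparse interstitial matrix with fibrillar collagens, fibronectin and fibrillin. Integrins anchor cells to both. Metalloproteinases and ADAMTS proteases cut matrix proteins, Timps inhibit them, and lysyl oxidases cross-link collagen and elastin. In chronic kidney disease the interstitial matrix accumulates, which is called fibrosis.

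Array medians over all probe sets ran from 6.03 to 6.61 on the log2 scale, and over the probe sets with 1 symbol the array medians averaged 6.45 for day 0, 6.34 for day 7 and 6.43 for day 10. Cyp1a1, the gene whose promoter responds to I3C, was between 4.33 and 5.23 across the day 0 arrays of F, FL and LF and between 3.91 and 4.41 in those of L. At both treated days all F arrays (5.69 to 8.90) and all L arrays (at most 5.98) lay above the day 0 arrays of their strain. In FL this held at day 10 (5.75 to 6.86), while the day 7 arrays (4.63 to 6.30) overlapped day 0. In LF the arrays of day 7 (4.85 to 5.98) and day 10 (4.54 to 6.35) overlapped the day 0 range of 4.67 to 5.23. Kidney identity was clear in the markers of tubules: proximal tubule genes averaged 11.1 on the log2 scale at day 0 and genes of Henle's loop and the distal nephron 10.9. In tissue RNA, fewer cells of a type and less RNA per cell cannot be told apart.

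A call below is an adjusted p under 0.05 in limma, with Benjamini-Hochberg adjustment over all 7997 genes within a comparison. Levels are log2 intensities, differences are on the log2 scale with their limma SE, and the 4 array values of a group are given in the order of replicate numbers 1 to 4, which carry no ranking. At day 7, as a mean of 4 strains, 1 of the 39 genes was higher than at day 0, 3 were lower and 35 did not pass the test. Of all genes 4.98% passed in that comparison, 88 higher and 310 lower, and after quantile normalization 231 higher and 326 lower. Blocking on the replicate number gave 155 genes higher and 739 lower, 11.2% of all genes, beside 4 members (10.3%), so the members' share was then near that of all genes. At day 10, 1 of the 39 was higher and 1 lower, where 2.3% of all genes passed. Between days 10 and 7 none of the 39 passed, where 0.075% of all genes passed. An unadjusted limma p under 0.05 was found there for 14 of the 39 and for 1051 of the 7997 genes. The median difference of the 39 genes was -0.02 at day 7 and 0.02 at day 10, beside medians of -0.03 and -0.0034 over all genes tested. Of the 39 genes, 14 passed in at least 1 comparison of days or strains and 25 passed in none. The matching share of all genes is not given here, so 14 of 39 cannot be set against it. In the F test of strains alone 13.2% of all genes passed.

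**Figure D1:**
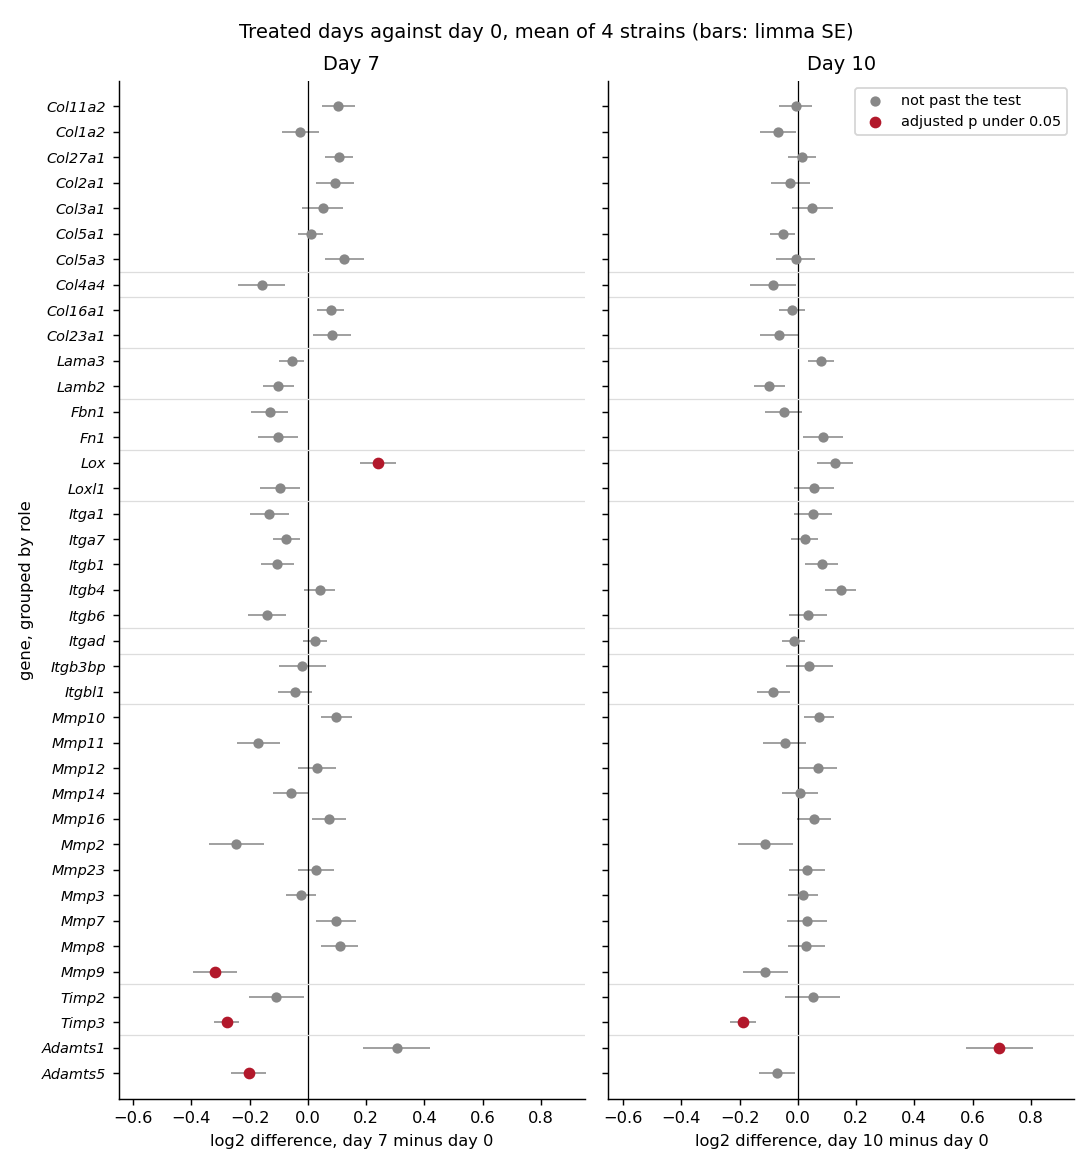
Log2 difference of each of the 39 genes from day 0, at day 7 (left) and day 10 (right), as a mean of 4 strains with 16 arrays per day. Points are limma estimates, bars are SE, red points have an adjusted p under 0.05, and grey lines part the groups of genes by role. Adamts1 at day 10 (0.69) lies farthest from 0, while the 7 fibrillar collagens lie between -0.03 and 0.13 at day 7 and between -0.07 and 0.05 at day 10.

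Promoters of the 2 genes that passed at day 10 are printed first, because the data centre on them. Sequences came from the RefSeq promoter table (build GRCr8), which held 26 of the 39 genes. Each line gives the 250 bases before the gene's annotated start, 5′ to 3′ on the gene's own strand, and the capitals mark GCGTG, the core that the aryl hydrocarbon receptor binds. The Adamts1 window is chr11:38427385-38427634 on the minus strand and the Timp3 window is chr7:19459559-19459808 on the minus strand.
Adamts1: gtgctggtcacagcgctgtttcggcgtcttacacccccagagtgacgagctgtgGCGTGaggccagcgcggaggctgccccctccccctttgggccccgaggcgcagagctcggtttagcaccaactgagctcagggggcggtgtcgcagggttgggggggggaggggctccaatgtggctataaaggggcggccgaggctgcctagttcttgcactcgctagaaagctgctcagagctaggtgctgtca
Timp3: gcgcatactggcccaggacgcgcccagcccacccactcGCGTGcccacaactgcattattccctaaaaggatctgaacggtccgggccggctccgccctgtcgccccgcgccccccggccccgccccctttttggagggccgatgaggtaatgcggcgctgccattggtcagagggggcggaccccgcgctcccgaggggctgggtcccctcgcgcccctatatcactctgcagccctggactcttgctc
The capitals begin 196 bases before the start in Adamts1 and 212 bases before it in Timp3. Both strands of these 250 bases were searched for every gene of the table, and GCGTG was found in 25.9% of 33469 promoters and in 6 of the 26 members. Adamts1 also has a TATA box (TATAAA) beginning 70 bases before the start and GC boxes (GGGCGG) at 114 and 63, and Timp3 has GC boxes at 158, 130 and 75. TATAAA was found in 12.9% of promoters and 7 of the 26 members, and GGGCGG in 30.5% and 13 of the 26. Neither window held the AP-1 motif TGANTCA (6.34% of promoters, 5 of the 26) or the SMAD motif CAGACA (17.2%, 5 of the 26). The matches in these windows do not overlap each other, and a match is a description of the letters only.

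Adamts1, a secreted protease that cuts the proteoglycans aggrecan and versican, had the largest change among the 39 genes. In strain LF its levels were 8.05, 8.02, 8.03 and 7.62 at day 0, 8.59, 8.26, 7.86 and 8.46 at day 7, and 9.57, 9.13, 8.86 and 9.23 at day 10. All 4 LF arrays of day 10 lay above all LF arrays of days 0 and 7. In F the levels were 7.41, 7.53, 7.64 and 7.62 at day 0 and 8.28, 8.36, 7.92 and 8.24 at day 10. In FL they were 7.62, 7.42, 7.17 and 7.47 at day 0 and 7.63, 7.98, 8.87 and 7.91 at day 10. In both strains every day 10 array was above every day 0 array, by as little as 0.01 in FL. In L the groups overlapped, with 8.43, 7.86, 7.85 and 7.53 at day 0 and 8.23, 8.00, 8.33 and 7.80 at day 10.

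As a mean of strains Adamts1 rose by 0.69 ± 0.11 (SE, 16 arrays a day) at day 10, a 1.62-fold change with a limma adjusted p of 0.000109. Within replicate numbers the difference was between 0.55 and 0.82, positive in 4 of 4. Without strain LF, and so with fewer arrays, it was 0.50 ± 0.14 with an adjusted p of 0.0816 and did not pass. Within LF the rise was 1.27 ± 0.23, which is 2.41-fold with an adjusted p of 0.000891, and leaving out any single array kept this call. The other strains gave 0.65 (F), 0.68 (FL) and 0.17 (L) at day 10, with adjusted p-values of 0.298, 0.679 and 0.999. At day 7 the difference as a mean of strains was 0.30 ± 0.11 (adjusted p = 0.114), and it passed after quantile normalization (0.39, adjusted p = 0.029).

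Adamts5 is the other measured ADAMTS gene and an aggrecan-cutting protease. Its lowest, median and highest levels were 6.43, 6.78 and 7.06 over the 16 arrays of day 0 and 6.21, 6.55 and 6.75 over those of day 7. It fell by 0.20 ± 0.06 at day 7 (limma adjusted p = 0.0424). Its day 7 arrays overlapped those of day 0 in all 4 strains. The call was lost on leaving out any of 17 single arrays, for which the difference stayed between -0.21 and -0.18 with adjusted p-values from 0.0501 to 0.0892, and it was lost after quantile normalization. At day 10 Adamts5 differed by -0.07 ± 0.06.

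Timp3, a matrix-bound inhibitor of metalloproteinases and of ADAMTS proteases, was lower at both treated days. In F its levels were 11.15, 11.20, 11.21 and 11.22 at day 0 and 11.11, 11.07, 11.06 and 10.90 at day 7. In L they were 11.26, 11.25, 11.24 and 11.11 at day 0 and 10.96, 10.82, 10.89 and 11.03 at day 7. All day 7 arrays lay below all day 0 arrays of the same strain in both. The same held in FL, with 11.20, 11.28, 11.15 and 11.12 at day 0 and 10.85, 10.93, 10.96 and 10.97 at day 7. In LF the levels were 11.21, 11.46, 11.26 and 11.07 at day 0 and 10.94, 10.83, 10.78 and 10.80 at day 7, again without overlap.

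Timp3 fell by 0.28 ± 0.04 at day 7 as a mean of strains, 1.21-fold, with a limma adjusted p of 5.15e-05. It was the only one of the 39 genes whose day 7 arrays lay below the day 0 arrays in all 4 strains, and no alternative that was run ended the call. Within replicate numbers the difference was between -0.38 and -0.20. Taken strain by strain it was -0.16 for F, -0.29 for L, -0.26 for FL and -0.41 for LF, of which LF passed (adjusted p = 0.00584, and 0.0715 without LF day 0 replicate 2, at -0.34). At day 10 Timp3 fell by 0.19 ± 0.04 (adjusted p = 0.0116), and the day 10 arrays overlapped those of day 0 in every strain. The day 10 call was lost on leaving out strain F, L or LF, or all arrays of replicate number 1, 2 or 3 (adjusted p up to 0.163). Timp2, the other inhibitor among the 39 genes, differed by -0.11 ± 0.09 at day 7 and 0.05 ± 0.09 at day 10 and did not pass. Timp1, measured but left out by the rule, was higher in LF at day 7 (0.78 ± 0.20) and day 10 (1.38 ± 0.20).

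Mmp9, the gelatinase that cuts denatured collagen and type IV collagen, was the 1 of 11 measured metalloproteinases to pass at day 7 as a mean of strains. Where probe sets were averaged instead of median polished, Mmp11 passed too (-0.24 ± 0.07, limma adjusted p = 0.0432), lower in 4 of 4 replicate numbers. In FL the Mmp9 levels were 5.86, 5.70, 5.71 and 5.72 at day 0 and 4.70, 4.83, 5.30 and 4.98 at day 7. At day 10 they were 5.03, 5.66, 5.13 and 5.65. All treated FL arrays lay below all day 0 FL arrays. In F the levels were 5.37, 5.46, 4.85 and 5.58 at day 0 and 4.85, 4.73, 4.97 and 4.92 at day 7, with overlap. In L they were 4.59, 4.83, 4.62 and 4.71 at day 0 and 5.03, 4.41, 4.89 and 5.06 at day 7, so 3 of the 4 arrays were higher and 1 was lower than every day 0 array.

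Mmp9 fell by 0.32 ± 0.08 at day 7 as a mean of strains, 1.25-fold, with a limma adjusted p of 0.00844. Within FL it fell by 0.79 ± 0.15 (adjusted p = 0.00605), and without FL day 7 replicate 1 the difference was -0.71 with an adjusted p of 0.0556. The within-strain differences were -0.45 in F, 0.16 in L and -0.19 in LF, none past the test. The mean-of-strains call was lost without F, FL or LF (without LF -0.36, adjusted p = 0.078) and without replicate number 1 or 2. The macrophage marker Adgre1 was lower at day 7 too, by 0.38 ± 0.11, and it was 1 of 5 measured macrophage markers to pass, with their mean level between 5.41 and 6.10 at day 0 and between 5.36 and 5.94 at day 7. Whether the cell content of the samples had a part in the Mmp9 difference was not tested.

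The other 10 metalloproteinases differed from day 0 by -0.25 to 0.11 at day 7 and by -0.11 to 0.07 at day 10, and none passed after median polish. They include Mmp2, the other gelatinase (-0.25 ± 0.10 at day 7, adjusted p = 0.128), Mmp14, the membrane-bound activator of Mmp2 (-0.06 ± 0.06), and Mmp7, the matrilysin of injured tubules (0.10 ± 0.07). Mmp3, Mmp7, Mmp8, Mmp10, Mmp12 and Mmp16 were among the 10 members in the dimmest 33.3% of genes by mean level, as were Itgad, Itgb3bp and the called members Lama3 and Itgbl1. Mmp11, stromelysin 3, changed in LF alone by the within-strain tests. Its LF levels were 6.91, 7.26, 6.83 and 6.52 at day 0 and 6.36, 6.47, 6.16 and 6.25 at day 7. All day 7 arrays of LF were below those of day 0, and the fall was 0.57 ± 0.15 (limma adjusted p = 0.0255). Leaving out LF day 0 replicate 2 gave -0.45 (adjusted p = 0.216), and the call was also lost without LF day 0 replicate 1 (-0.56) or LF day 7 replicate 3 (-0.52) or 4 (-0.55).

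Lox, the lysyl oxidase that starts collagen cross-linking, was the 1 gene of the 39 to rise at day 7 as a mean of strains. In LF its levels were 4.64, 4.99, 4.83 and 4.65 at day 0 and 5.59, 5.65, 5.12 and 4.84 at day 7. Of the 4 day 7 arrays 3 lay above all day 0 arrays. In F they were 5.07, 4.77, 4.77 and 4.81 at day 0 and 5.22, 5.03, 5.29 and 5.12 at day 7. Here 3 of 4 lay above the day 0 range too, as in FL, while in L 2 of 4 lay below it.

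Lox rose by 0.24 ± 0.06 at day 7, 1.18-fold, with a limma adjusted p of 0.0154, and was higher in 4 of 4 replicate numbers (0.12 to 0.37). Within LF the rise was 0.52 ± 0.12 (adjusted p = 0.0149), and it did not pass without LF day 0 replicate 1 (0.48, adjusted p = 0.0684) or LF day 7 replicate 1 (0.42) or 2 (0.41). Without strain LF the mean-of-strains difference was 0.15 with an adjusted p of 0.391, and the call was also lost without F or FL. Leaving out all arrays of replicate number 1, 2 or 3 ended this call too (limma adjusted p up to 0.125). Loxl1, a second lysyl oxidase that acts on elastin, differed by -0.10 ± 0.07 at day 7 and 0.05 ± 0.07 at day 10.

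**Figure D2:**
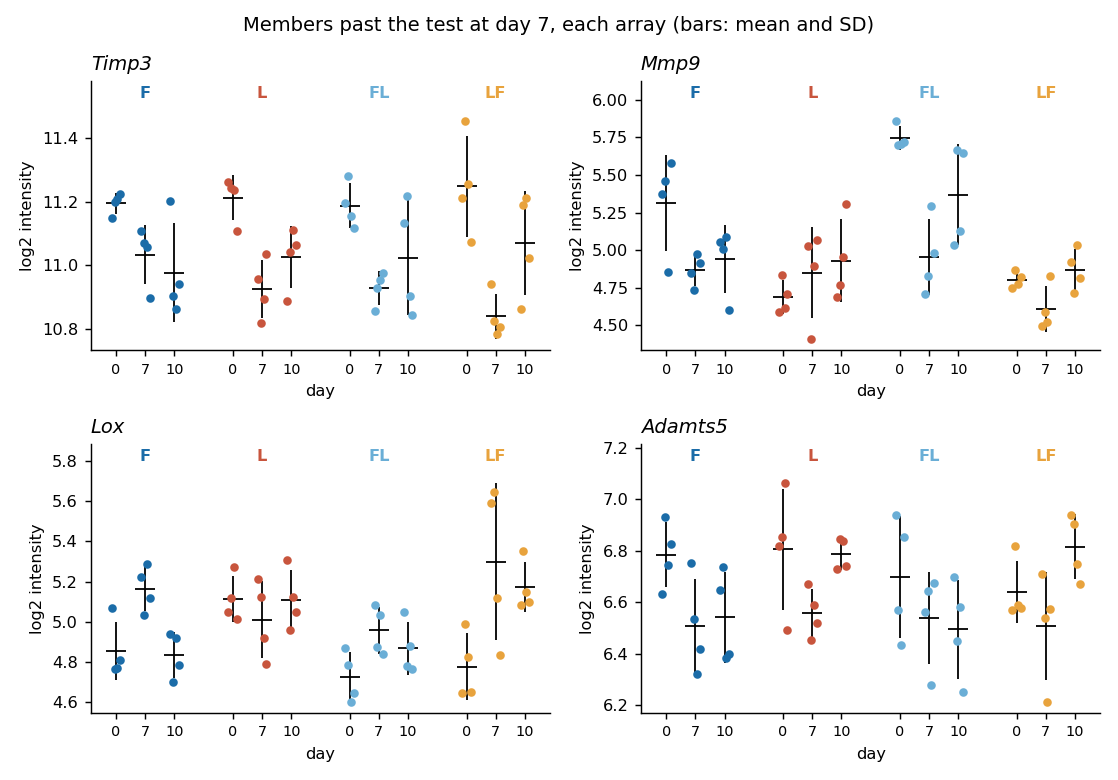
Log2 intensity of the 4 genes that passed at day 7, in each of the 48 arrays by strain and day. Dots are arrays, and black bars are the mean and SD of the 4 arrays of a group. Timp3 at day 7 lies below day 0 in every strain, and the high day 0 level of Mmp9 in FL (5.70 to 5.86) is absent in L (4.59 to 4.83).

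None of the 7 fibrillar collagens passed at either day, and their differences at day 10 ran from -0.07 to 0.05 with a median of -0.0068. Col1a2, a chain of type I collagen, had a lowest, median and highest level of 7.97, 8.57 and 8.77 over the 16 arrays of day 0 and of 7.99, 8.51 and 8.72 over those of day 10. Its difference was -0.07 ± 0.06, with a 95% interval from -0.19 to 0.06. Col3a1, which forms type III collagen, had 7.06, 7.62 and 7.90 at day 0 and 7.32, 7.58 and 7.99 at day 10. The ranges overlapped almost wholly, and the difference was 0.05 ± 0.07 with an interval from -0.09 to 0.19.

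At day 7 the fibrillar collagens differed by -0.03 to 0.13, none past the test. Of the 37 members that did not pass at day 10, 33 had a 95% interval that lay wholly within 0.25 of 0 on the log2 scale, a 1.19-fold change, and the widest bound was 0.30. At day 7 this held for 26 of 35, with a widest bound of 0.54, that of Adamts1. Col4a4, a chain of glomerular basement membrane collagen and the 1 type IV chain measured, differed by -0.16 ± 0.08 at day 7 and -0.09 ± 0.08 at day 10. Col16a1 and Col23a1 differed by 0.08 each at day 7 and by -0.02 and -0.06 at day 10.

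Fibronectin (Fn1), an early matrix protein of wound repair, differed by 0.09 ± 0.07 at day 10 as a mean of strains. In LF its levels were 7.95, 8.33, 8.14 and 8.09 at day 0 and 8.77, 8.38, 8.58 and 8.54 at day 10. All day 10 arrays of LF lay above those of day 0, and the difference of 0.44 ± 0.14 did not pass (adjusted p = 0.171). After quantile normalization it passed, at 0.43 with an adjusted p of 0.0193. Fibrillin 1 (Fbn1), the scaffold of elastic microfibrils, differed by -0.13 ± 0.06 at day 7 and -0.05 ± 0.06 at day 10. Lamb2, the laminin beta chain of the glomerular basement membrane, differed by -0.10 ± 0.05 at both days.

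Of the 5 other integrin subunits, Itga1, Itga7, Itgb1, Itgb4 and Itgb6, none passed as a mean of strains. Itgb1, the common beta chain of matrix receptors, differed by -0.11 ± 0.06 at day 7 and 0.08 ± 0.06 at day 10. Itgb6, the epithelial subunit of a receptor that activates latent TGF-beta, differed by -0.14 ± 0.06 and 0.04 ± 0.06. Itgad, a leukocyte integrin chain and the 1 leukocyte integrin among the 39 genes, differed by 0.02 ± 0.04 and -0.01 ± 0.04. Itgam, a leukocyte integrin chain that the rule left out, was measured and is counted with the macrophage markers. Itgb3bp and Itgbl1 did not pass either, at -0.02 and -0.04 at day 7.

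Within strains at day 10, Adamts1, Itgb4 and Lama3 rose in LF. They were 3 of the 39 genes, where 1.04% of all genes passed in LF. In F none of the 39 passed (0.375% of all genes), in FL none (0.025%) and in L none (0%). Itgbl1 in F, at 4.38, 4.66, 4.33 and 4.71 at day 0 and 3.82, 4.07, 4.21 and 4.28 at day 10, came closest (-0.43 ± 0.12, adjusted p = 0.0947). It passed after quantile normalization (-0.44, adjusted p = 0.0394) and with the mean of probe sets (-0.54, adjusted p = 0.0429). Over all genes 713, 328 and 336 had an unadjusted p under 0.05 in F, FL and L by the same limma test. Itgb4 is the integrin chain of hemidesmosomes, and Lama3 encodes a chain of the laminin it binds. Itgb4 in LF had levels of 5.37, 5.84, 5.70 and 5.51 at day 0 and 6.35, 6.14, 5.82 and 5.97 at day 10. Lama3 in LF had 4.03, 4.25, 4.15 and 4.12 at day 0 and 4.69, 4.36, 4.46 and 4.54 at day 10. The Lama3 groups did not overlap, and for Itgb4 3 of 4 day 10 arrays lay above the day 0 range.

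As a dim gene Lama3 was not tested under the filter on dim genes. Itgb4 rose by 0.46 ± 0.11 (1.38-fold, limma adjusted p = 0.0141) and Lama3 by 0.38 ± 0.09 (1.30-fold, adjusted p = 0.0178) in LF at day 10. The Itgb4 call was lost without LF day 0 replicate 1 (0.39) or 4 (0.43), or LF day 10 replicate 1 (0.37) or 2 (0.44), with adjusted p-values from 0.0627 to 0.145. The Lama3 call was lost without LF day 0 replicate 1 (0.34) or 4 (0.37), or LF day 10 replicate 1 (0.32) or 4 (0.37), with adjusted p-values from 0.0546 to 0.142. In F, L and FL, Itgb4 differed by 0.03 to 0.05 at day 10 and Lama3 by -0.11 to 0.09.

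Injury markers of the tubule moved in the same LF arrays. Of 7 such markers, all measured, 4 were higher in LF at day 10, among them Havcr1 (3.87 ± 0.47) and Lcn2 (2.56 ± 0.26), and the list's median difference was 1.38. Over the arrays of all strains the mean level of the 7 markers ran from 5.89 to 6.54 at day 0 and from 6.16 to 8.23 at day 10. The smooth muscle marker Tagln was higher in LF by 0.90 ± 0.15, 1 of 4 measured smooth muscle markers, while none of 5 fibroblast markers passed there. The part of cell content in the rises of Adamts1, Itgb4 and Lama3 was not tested.

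**Figure D3:**
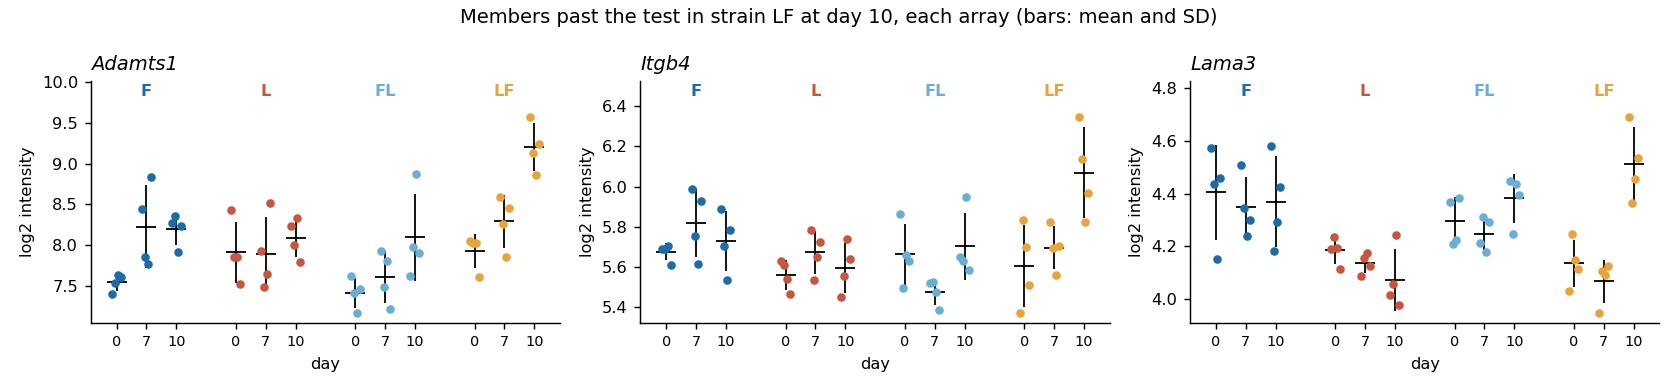
Log2 intensity of the 3 genes that passed in strain LF at day 10, in each of the 48 arrays by strain and day. Dots are arrays, and black bars are the mean and SD of the 4 arrays of a group. The LF arrays of day 10 are the highest group for each gene (means 9.20, 6.07 and 4.51).

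Within strains at day 7, Timp3 and Mmp11 fell and Lox rose in LF, 3 of the 39 genes where 2.44% of all genes passed. In FL only Mmp9 passed, 1 of 39 beside 0.15% of all genes. In F none passed beside 0.688%, and in L none beside 0%. Markers of several cell types moved in the same LF arrays at day 7. Of 7 tubular injury markers 3 were higher (Havcr1 2.27 ± 0.47, Lcn2 1.72 ± 0.26 and Timp1 0.78 ± 0.20), and their mean level was 6.34 to 6.53 at day 0 and 6.82 to 7.64 at day 7. Lower were 1 of 5 macrophage markers (Adgre1, -0.92 ± 0.22), the 1 endothelial marker (Emcn, -0.51 ± 0.14), 1 of 4 podocyte markers (Podxl, -0.36 ± 0.10), 2 of 4 proximal tubule markers (Slc5a2, -0.73 ± 0.14, and Lrp2, -0.28 ± 0.07) and 1 of 5 distal markers (Calb1, -0.96 ± 0.24). The part of cell content in the LF calls of day 7 was not tested.

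Whether strains respond differently was tested directly by the F test of 6 interaction contrasts, and none of the 39 passed, where 0.2% of all genes did. An unadjusted p under 0.05 was found for 8 of the 39 and for 537 of the 7997 genes by the same F test. Among the 39 the smallest were those of Lama3 (0.00239), Mmp9 (0.00245), Itgb4 (0.00586), Lox (0.0185), Adamts1 (0.0196) and Fn1 (0.0201), with adjusted p-values from 0.299 to 0.609. A response in LF or FL that is absent in another strain is therefore not shown for any of these genes.

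Strain differences, taken as the mean of 3 days with 12 arrays a strain, were the most common calls. In the F test of 4 strain means 10 of the 39 genes passed, where 13.2% of all genes did. The median range of strain means was 0.14 for the 39 genes and 0.16 over all genes. By pairs, F and L differed in 4 members (7.03% of all genes), F and LF in 4 (7.09%), L and FL in 5 (10.3%) and FL and LF in 7 (10.8%). F and FL differed in none (0.35%), and L and LF in 1, Itgbl1 (0.675%). Of the 21 pair calls over 11 genes, 20 thus separate F or FL from L or LF. The calls over all genes fell the same way, with 7.03% to 10.8% in these pairs against 0.35% and 0.675% in the others. The comparisons share strains and are not independent.

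Mmp9 had the widest range of strain means among the members that passed with day 0 arrays alone as well. Its lowest, median and highest levels over 12 arrays were 4.70, 5.47 and 5.86 for FL and 4.60, 4.99 and 5.58 for F. They were 4.41, 4.80 and 5.31 for L and 4.50, 4.79 and 5.04 for LF. FL was highest and LF lowest, and the neighbours L and LF did not differ beyond their spread. FL exceeded LF by 0.60 ± 0.09 (1.51-fold, limma adjusted p = 3.43e-06) and L by 0.53 ± 0.09 (adjusted p = 2.95e-05). Both calls held under every alternative run. With day 0 arrays alone the differences were larger, at 0.94 against LF and 1.06 against L (L minus FL -1.06), and F then exceeded L as well (0.63, adjusted p = 0.02). F exceeded LF by 0.28 ± 0.09 (adjusted p = 0.0423), a call lost on leaving out any of 19 single arrays.

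Adamts1 ran from 7.17 to 8.87 in FL (median 7.63) and from 7.62 to 9.57 in LF (median 8.36). LF exceeded FL by 0.76 ± 0.13 (FL minus LF, adjusted p = 5.23e-05) and F by 0.48 ± 0.13 (adjusted p = 0.0155). The day 10 arrays of LF enter these means. With day 0 arrays alone FL minus LF was -0.51 (limma adjusted p = 0.277) and F minus LF -0.38 (adjusted p = 0.668), so neither passed. Itga1, the alpha chain of the collagen receptor alpha1 beta1, had a median of 9.32 in both F and FL, of 8.94 in L and of 9.05 in LF. F exceeded L by 0.31 ± 0.08 (adjusted p = 0.006) and FL exceeded L by 0.34 ± 0.08 (adjusted p = 0.00169). At day 0 all F arrays (9.31 to 9.45) and all FL arrays (9.18 to 9.46) lay above all L and LF arrays (8.64 to 9.15). With day 0 arrays alone, Itga1 passed the F test of strains, beside Mmp9, and no other member did. The pair calls of Itga1 did not pass there (limma adjusted p from 0.0902 to 0.165).

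Lama3 was highest in F, at 4.15 to 4.58, and lowest in L, at 3.98 to 4.24, a difference of 0.24 ± 0.05 (limma adjusted p = 0.000885). Fbn1 went the other way, with L at 6.52 to 7.05 and F at 6.06 to 6.80, and F lay below L by 0.32 ± 0.07 (F minus L -0.32, adjusted p = 0.00373). With day 0 arrays alone the difference was -0.16 (adjusted p = 0.9), and at day 10 the group means were 6.31 in F and 6.94 in L. Mmp11 was lower in F than in L (-0.27 ± 0.09) and than in LF (-0.31 ± 0.09). Itgbl1, a secreted protein that resembles an integrin beta chain, was lower in L than in FL (-0.29 ± 0.07) and LF (-0.31 ± 0.07). Its L arrays began at 3.92 and its LF arrays spanned 4.29 to 4.70, and the highest L array lay just above the lowest LF array.

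Col4a4 was higher in FL (7.93 to 8.75) than in LF (7.56 to 8.30), by 0.36 ± 0.09 (adjusted p = 0.00732), and so was Col5a1, a regulatory fibrillar chain, by 0.19 ± 0.05 (adjusted p = 0.0094). Lox was lower in FL than in LF (-0.23 ± 0.07) and higher in L than in FL (0.23 ± 0.07). With day 0 arrays alone the first difference was -0.05 (adjusted p = 0.893) and the second 0.39 (adjusted p = 0.127). Itgb1 was lower in FL than in LF (-0.20 ± 0.07, adjusted p = 0.041), the 1 pair call of a gene that missed the F test. Single arrays decided several of these calls: leaving out 1 array ended the F-test call of Lox for 28 of 48 arrays, of Col4a4 for 11 and of Col5a1 for 11. It also ended the pair calls of Itgb1 for 12 arrays, of Lox for 7 against LF and 10 against L, of Itga1 between F and LF for 10, and of Mmp11 between F and L for 13. The highest adjusted p in these was 0.107. Leaving out all arrays of a replicate number ended further calls. For 3 of 4 numbers it ended the pair calls of Mmp11 (F, LF), Itgbl1 (L, LF) and Col5a1 (FL, LF). The same held for the F-test calls of Fbn1 and Mmp11, and the highest limma adjusted p in these 5 was 0.274. The pair calls of Itgbl1 between L and FL and of Adamts1 between FL and LF were kept.

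**Figure D4:**
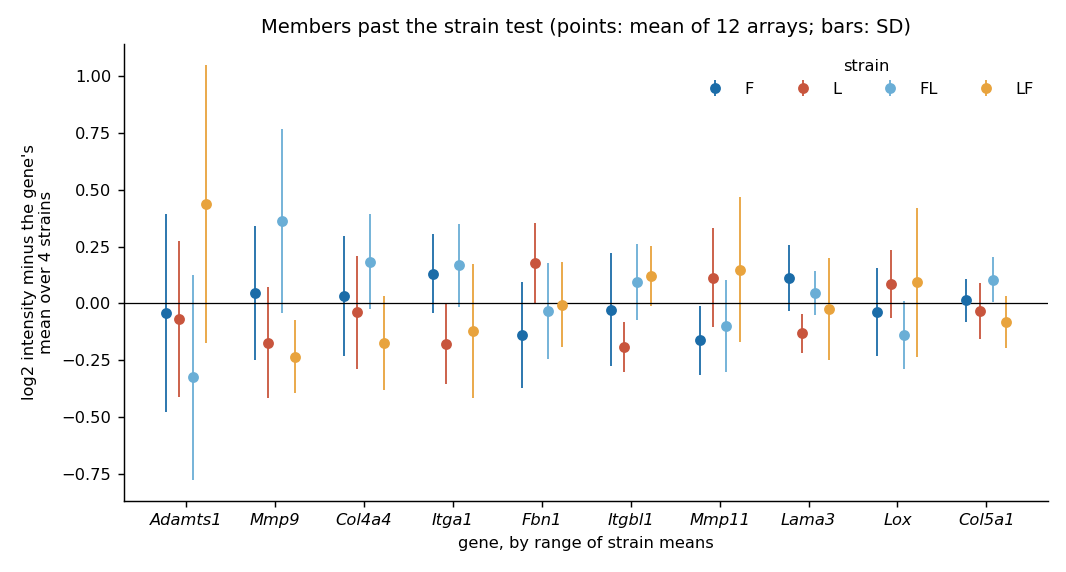
Strain means of the 10 genes that passed the F test of strains, each minus the gene's mean over 4 strains, on the log2 scale. Points are means of 12 arrays over 3 days and bars are SD. Mmp9 and Itga1 are higher in F and FL than in L and LF, and the wide bars of Adamts1 include the LF arrays of day 10.

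Exon arrays also allow single probe sets to be set against the rest of their gene. With limma diffSplice, which gives all probe sets of a gene 1 spread, 5 of the 39 genes passed at day 7 (11.8% of 7510 genes with at least 2 probe sets), 2 at day 10 (1.12%) and 3 between F and L (7.12%). When each probe set kept its own spread, a test added after the data were seen, none of these 10 calls held. That test passed 0.133% of genes at day 7, 0.107% at day 10 and 5.67% between F and L. By it 8 of the 39 genes at day 7 and 4 at day 10 had an unadjusted p under 0.05. Matching counts over all genes are not given here. None of the 39 passed at day 7 or day 10, and 1 passed between F and L. The call was of Itga1, where probe set 5745458 differed from the other probe sets by -0.49 ± 0.09 (gene adjusted p = 0.00409).

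In F, probe set 5745458 of Itga1 averaged 8.42 ± 0.41 (SD, 12 arrays) while the rest of the gene averaged 9.03 ± 0.21. In L the values were 8.60 ± 0.32 and 8.72 ± 0.21, so that the gap was 0.61 in F and 0.12 in L. The probe set thus did not follow the higher level of the gene in F. Whether a sequence difference between the strains lies under this probe set was not tested. In Fn1, which the first test called at day 10, probe set 5687085 averaged 4.48 ± 0.77 at day 0 and 5.31 ± 0.78 at day 10 (16 arrays each), a difference of 0.75 ± 0.22 relative to the gene. The arrays of the 2 days overlapped, from 3.10 to 5.33 and from 3.76 to 6.55, and with its own spread the gene's adjusted p was 0.995.

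**Figure D5:**
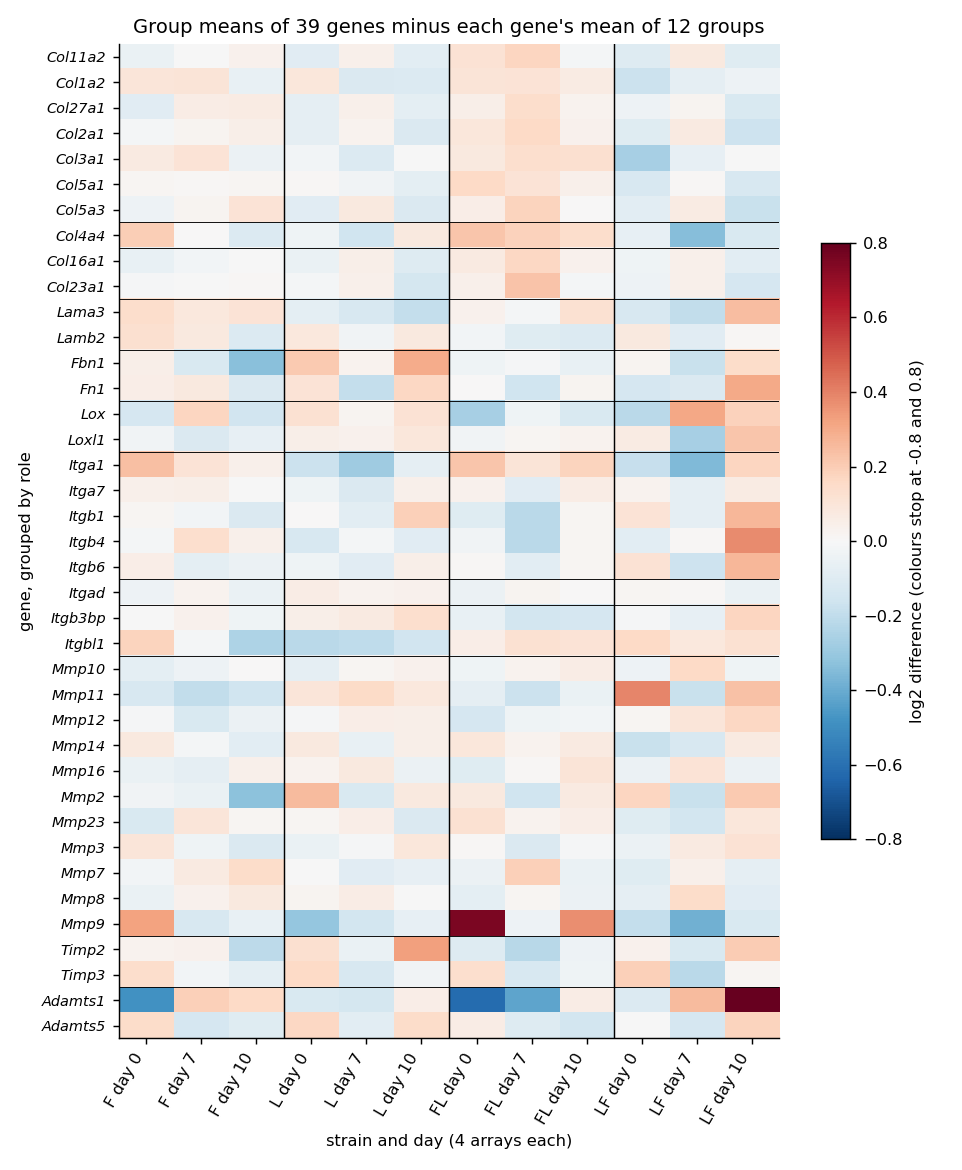
Mean log2 intensity of each of the 39 genes in the 12 groups of 4 arrays, minus the gene's mean over the groups, in colour from -0.8 (blue) to 0.8 (red). Rows are grouped by role, and 1 of the 468 values, Adamts1 in LF at day 10, lies beyond the colour scale. Adamts1 and Mmp9 hold the strongest colours.

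Other matrix genes, listed apart from the 39, changed in both directions. Of 14 measured proteoglycan, elastic and matricellular genes, 4 rose and 3 fell at day 7, and 2 rose and 3 fell at day 10. Lum, a small proteoglycan that binds collagen fibrils, rose by 0.67 ± 0.11 at day 7 and 0.74 ± 0.11 at day 10 (limma adjusted p = 5.34e-05 and 1.11e-05). Mgp, the matrix Gla protein that inhibits calcification, rose by 0.33 ± 0.08 and 0.52 ± 0.08. Vcan, the proteoglycan versican, fell by 0.43 ± 0.08 and 0.34 ± 0.08, and Fbln5, an organiser of elastic fibres, fell by 0.45 ± 0.09 and 0.37 ± 0.09. The list's median was -0.09 at day 7 and -0.01 at day 10.

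Of 13 measured TGF-beta pathway genes 1 fell at day 7, Ltbp1, which stores latent TGF-beta in matrix (-0.27 ± 0.07), and none passed at day 10. Of 10 collagen processing enzymes 2 fell at day 7, the cross-linking enzyme Tgm2 (-0.26 ± 0.06) and Pcolce, an enhancer of procollagen cleavage (-0.19 ± 0.05), and none passed at day 10. None of 9 integrin adhesion partners and none of 11 plasminogen and membrane proteases passed at either day. The medians of these 4 lists lay between -0.11 and -0.05 at day 7 and between -0.03 and 0.01 at day 10. Of the markers of cells that make matrix, 1 of 5 fibroblast genes, Thy1, fell at day 7 (-0.37 ± 0.11) and none passed at day 10. Their mean level ran from 5.68 to 6.20 over the arrays of day 0 and from 5.78 to 6.22 over those of day 10.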

How the data were processed

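The deposited table holds 1 log2 intensity for each probe set on each array. The authors computed these log2 values with RMA, per the submitters' processing notes, which also name limma. For versions, genome build and detection filter the sources used here give nothing. Of 92401 probe sets, 85406 carry 1 platform symbol, 1803 several and 5192 none. Old symbols were updated through RefSeq (1876 of 8016), and the probe sets of a gene were joined by median polish, giving 7997 genes.

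One limma model (limma 3.58.1, R 4.3.3) with a mean for each of 12 groups over 48 arrays gave every comparison, with Benjamini-Hochberg adjustment over all genes and a threshold of 0.05. Probe sets were set against their gene with diffSplice. The scripts were tested on simulated data, in which diffSplice also called genes that had been simulated without a change. The number of arrays limits the precision.

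The members, lists and tests were chosen with earlier results of these data known. Named genes were up to 12 called members per comparison of days or strains, up to 5 per within-strain or pair comparison, up to 6 with the smallest p for the interaction and probe set use, members always named, and up to 3 genes of each other list. Members outside the rule, such as Col16a1, Itgad and Loxl1, were named to complete a role.

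The replicate numbers were taken as pairing arrays because the labels give array names that share a start within a number. Deviations of the 264 same-number pairs correlated at 0.0948 on average (lowest -0.301, 112 pairs over 0.1), against -0.0316 for the 792 others. The highest correlation between any arrays was 0.9786, so none was counted as a duplicate. Alternatives were the replicate block, quantile normalization, the mean of probe sets, a filter on dim genes, fits on fewer groups, leaving out arrays, numbers or strains, day 0 arrays alone and, for probe sets, the gene F test and each probe set's own spread. Comparisons with day 0 arrays alone took the day 0 group means from the model of all 48 arrays, with the spread of that model. Leaving out strains and the own spread were chosen after seeing the data. Figures were drawn with matplotlib 3.10.9.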

Additional observations from a re-analysis of the deposited data

Results flagged for a closer look

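The arrays of each group of 4 were compared for the 14 members that passed in any comparison. In 10 of the 168 groups, 1 array lay far from the other 3 by Dixon's criterion for the gap to the nearest array over the range, and chance alone flags about 1 group in 20. At day 0, Adamts1 was 7.62 in LF replicate 4 (nearest other array 8.02), Adamts5 was 6.82 in LF replicate 2 (6.59) and Itgb4 was 5.61 in F replicate 4 (5.69). Also at day 0, Lox was 5.07 in F replicate 1 (4.81), Mmp9 was 5.86 in FL replicate 1 (5.72) and Timp3 was 11.11 in L replicate 4 (11.24). In replicate 4 of FL at day 10, Fbn1 was 6.19 (nearest 6.67) and Mmp11 was 6.08 (6.52). At day 10, Mmp11 was 6.99 in LF replicate 2 (6.67) and Mmp9 was 4.60 in F replicate 4 (5.01).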

How the results depend on the processing

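No called member reversed its direction under any alternative. Over all members, 36 pairs of a member and a comparison that did not pass as reported passed under at least 1 alternative, 20 of them after quantile normalization and 12 with the mean of probe sets. Counts below are of members that passed. Fitting the compared groups alone gave 1 in place of 3 within strains at day 10 and 0 in place of 4 within strains at day 7, with fewer arrays to estimate the spread. Quantile normalization gave 6 within strains at day 10 and 32 in place of 21 strain pair calls, among them Col1a2 and Col3a1, and moved the day 7 calls of all genes from 88 higher and 310 lower to 231 and 326. With day 0 arrays alone 3 pairs passed, all of Mmp9, of which 2 were among the 21 and 1 (F against L) was gained, and 2 of the 10 strain calls held. Without a strain, day 7 as a mean of strains gave 1 in place of 4 on leaving out F, FL or LF, and day 10 gave 1 in place of 2 without F or L and 0 without LF. Without F, 4 members in place of 0 passed between days 10 and 7 (Adamts1, Fn1, Itgb1 and Lama3). The replicate block gave 17 in place of 10 probe set calls, and each probe set's own spread gave 1. For all genes the block gave 894 in place of 398 calls at day 7, and for the comparisons of days it kept every member call and added none, while 6 pair calls (27 in all) and 2 strain calls (12 in all) were gained. The cause of these shifts was not tested. Leaving out single arrays or all arrays of a replicate number gave 1 to 3 within strains at day 10, 1 to 2 at day 10 as a mean of strains, 0 to 1 between days 10 and 7, 0 to 4 within strains at day 7, 1 to 4 at day 7 as a mean of strains, 5 to 12 for probe sets, 7 to 26 pair calls, 4 to 11 strain calls and 0 for the interaction. The filter on dim genes left 29 of 39 members and took out Lama3 and Itgbl1. With 4 arrays a group, small changes within a strain may be missed.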

Other observations

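Among the cell markers, those of the nephron were lower at day 7 as a mean of strains: 4 of 5 genes of Henle's loop and the distal nephron, among them the calcium-binding protein Calb1 (-0.90 ± 0.12) and the water channel Aqp2 (-0.49 ± 0.08), and 2 of 4 proximal tubule genes, Lrp2 (-0.15 ± 0.04) and Slc5a2 (-0.24 ± 0.07). At day 10, 2 of the 5 distal genes and none of the proximal genes passed in limma. Of 7 tubular injury markers 4 were higher at day 7 and 5 at day 10, with Havcr1 at 1.52 ± 0.23 and 2.49 ± 0.23. Of 4 smooth muscle markers Tagln was higher at day 7 (0.43 ± 0.07) and Tagln and Des at day 10 (0.60 ± 0.07 and 0.26 ± 0.07). The 1 endothelial marker measured, Emcn, was lower at day 7 (-0.32 ± 0.07), as was 1 of 4 podocyte markers, Podxl (-0.21 ± 0.05), and neither passed at day 10. None of 3 lymphocyte markers passed at either day. None of the 5 macrophage markers passed at day 10.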
